A study of Homo sapiens with 6 samples.

Results

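Interferon-stimulated genes and members of the Schlafen family were followed in LN-229, an established cell line from a human glioblastoma. The set held 44 genes, chosen by symbol and matched to Ensembl gene IDs, of the 58174 genes in each deposited table. It held 5 IFI genes, 4 OAS genes, 3 Schlafen genes and members of 10 other role groups named below. The groups were compared with the question of which genes depend on JMJD1C, a histone demethylase of the JmjC family. One group was labelled sh-JMJD1C (3 libraries), usually read as a short hairpin RNA that targets JMJD1C, and the other was labelled control-NC (3 libraries, control from here on). In both groups the RNA was nuclear-enriched and ribosomal RNA had been removed. The labels name no interferon, virus or other stimulus in either group. They also do not give the hairpin sequence, whether cells were pooled or cloned, the time after its delivery, or whether the replicates were separate cultures. Every p-value therefore measures only the spread between these libraries, which may be technical.

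Type I and type III interferons bind their receptors and activate the JAK kinases, which phosphorylate STAT proteins. The complex ISGF3, which holds STAT2 and IRF9, then binds the interferon-stimulated response element in promoters, while interferon gamma acts through the gamma-activated sequence. The induced genes include sensors and effectors against viral RNA, such as the OAS, IFIT and Mx proteins, and the machinery that presents peptides on MHC class I. Schlafen genes are induced by type I interferon too. SLFN5 is a nuclear member that has been described in glioblastoma cells as a co-repressor of interferon-driven transcription.

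The promoter sequences of the set show these elements. RefSeq windows (build GRCh38.p14, 300 bases, from 250 before to 50 after each annotated start) were matched by symbol for 35 of the 44 genes. IFIT2, IFITM2, MX2, OAS2, OASL, IRF7, TRIM22, GBP2 and SLFN5 had no entry. The core of the interferon-stimulated response element, searched on both strands as GAAA, any 2 bases and GAAA again, was in the windows of 25 of these 35 genes (29 of 45 windows), against 3.57% of all 35116 windows. The core of the gamma-activated sequence, searched as TTCNNNGAA on both strands, was in 13 of the 35 genes (14 of 45 windows), against 7.66% of all windows. The matches of both motifs shared bases in BST2, IFI27, IFITM1 and MX1. The stretches below were chosen because they belong to the genes whose values are described next, and capitals mark the motif. In the first 6 genes and in IFIT5 the capitals are this paired GAAA, with IFIT5 matched on the strand opposite to the one printed. In OAS1 and IFI35, whose windows held no paired GAAA, they are TTCNNNGAA.
ISG15, chr1:1013369-1013414, plus strand: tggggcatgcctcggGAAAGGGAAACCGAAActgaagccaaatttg
IFITM3, chr11:320871-320927, minus strand: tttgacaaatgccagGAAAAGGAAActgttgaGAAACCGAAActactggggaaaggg
BST2, chr19:17405730-17405775, minus strand: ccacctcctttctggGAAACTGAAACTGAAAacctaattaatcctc
B2M, chr15:44711358-44711403, plus strand: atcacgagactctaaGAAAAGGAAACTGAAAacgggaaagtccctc
OAS3, chr12:112938316-112938473, plus strand: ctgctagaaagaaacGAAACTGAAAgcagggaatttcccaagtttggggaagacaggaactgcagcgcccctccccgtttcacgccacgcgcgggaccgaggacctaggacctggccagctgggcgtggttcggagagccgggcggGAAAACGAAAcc
PARP14, chr3:122680795-122680834, plus strand: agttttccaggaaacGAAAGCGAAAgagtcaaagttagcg
IFIT5, chr10:89414508-89414567, plus strand: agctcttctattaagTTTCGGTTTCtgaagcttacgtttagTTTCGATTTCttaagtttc
OAS1, chr12:112906762-112906821, plus strand: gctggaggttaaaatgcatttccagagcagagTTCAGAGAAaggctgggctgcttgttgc
IFI35, chr17:43006724-43006783, plus strand: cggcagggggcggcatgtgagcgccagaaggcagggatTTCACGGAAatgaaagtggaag
The motif began 113 and 107 bases before the start in ISG15, 52 and 35 in IFITM3, 130 and 124 in BST2, 144 and 138 in B2M, 143 and 12 in OAS3, 29 in PARP14, 45 and 19 in IFIT5, 168 in OAS1 and 22 in IFI35. A further match in IFIT5 began 4 bases before the start and ran past the end of its stretch, where it is not marked. A match is a run of letters and not a measured binding site.

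The knockdown target was lower in each sh-JMJD1C library. JMJD1C (ENSG00000171988, chromosome 10, 63167221 to 63521850, minus strand, hg38) had 76, 16 and 40 reads in sh-JMJD1C 1 to 3, against 79, 229 and 698 reads in control 1 to 3. Its FPKM, scaled between libraries, averaged 0.645 ± 0.388 in sh-JMJD1C and 3.50 ± 1.10 in control (SD, n = 3 each; log2 fold change -1.82, SE 0.41, limma adjusted p = 0.118), and a two-sided exact permutation test gave p = 0.1, the smallest that 3 libraries against 3 allow. On reads recovered from the FPKM the log2 fold change was -2.49 (limma-voom adjusted p = 0.0253). Depth was 1660561 to 1919675 reads in sh-JMJD1C and 544442 to 2960454 reads in control. The nuclear RNA MALAT1 took 0.0915% to 0.292% of reads in sh-JMJD1C and 1.25% to 2.40% in control, and NEAT1, another nuclear RNA, had a log2 fold change of -1.96 (limma-voom adjusted p = 0.0212). The 7SL RNA genes took 1.18% to 18.5% of reads in sh-JMJD1C and 0.378% to 1.77% in control, and these ranges overlapped. Mitochondrial genes took 1.33% to 12.6% of reads in sh-JMJD1C and 2.93% to 8.70% in control, which overlapped as well. Control 1, the shallowest library, had 25% of its reads on 1 gene without a symbol, and sh-JMJD1C 1 correlated better over genes with control 2 (r = 0.884) than with the other sh-JMJD1C libraries (0.830 and 0.793). The line's markers VIM, CD44, EGFR, SOX9 and FN1 were measured and none of the 5 passed on reads. EGFR came closest, at 753, 298 and 268 scaled RPM in sh-JMJD1C against 1162, 1152 and 1093 in control, with no overlap (log2 fold change -1.54, limma-voom adjusted p = 0.0587). NES and TNC had under 60 reads. The 8 immune cell markers summed to 2.06 to 6.24 scaled RPM (reads scaled to a common library size) in sh-JMJD1C and 1.22 to 5.13 in control, with CD3E, MS4A1 and LYZ at 0 in every library. The part of these shifts in the results below was not tested.

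Most of the 44 genes were expressed at a low level or not detected. A read was present in at least 1 library for 36 genes and in every library for 24. The other 8 (IFI44L, OAS2, RSAD2, XAF1, GBP1, GBP2, SLFN11 and SLFN12) had 0 reads in all 6 libraries, which allows up to 1.56 to 1.81 RPM before scaling in sh-JMJD1C libraries and up to 1.01 to 5.51 in control libraries. Between 1 and 59 reads in all were found for 15 genes, and 21 genes reached the 60 reads required for the fit on reads. Per kilobase of the longest annotated transcript, averaged over both groups, the highest levels were 384 scaled RPM for IFITM3, 118 for B2M, 108 for BST2, 107 for IFITM2 and 62.8 for IFI35. OAS1 stood at 15.3 on the same scale. Together the 44 genes had 8425 reads in sh-JMJD1C and 7801 in control.

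**Figure D1:**
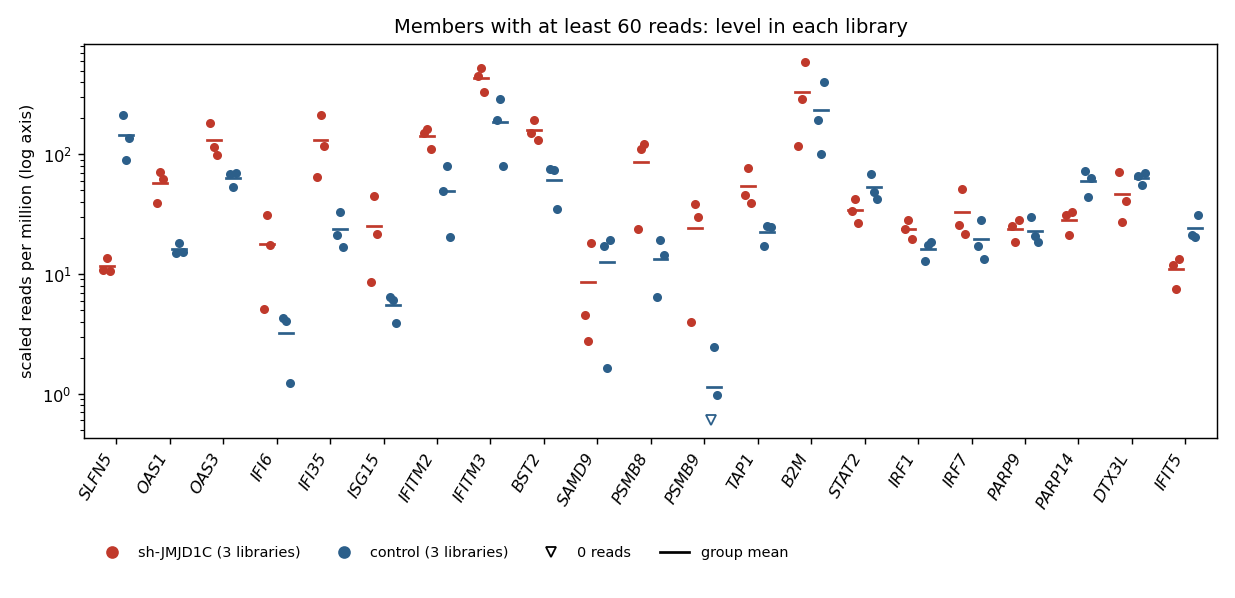
Level of each of the 21 genes with at least 60 reads in scaled RPM (log axis), with 3 sh-JMJD1C libraries to the left of 3 control libraries, dots for libraries, lines for group means and open triangles for 0 reads. SLFN5 lies at 10.5 to 13.7 in sh-JMJD1C and at 90.3 to 211 in control, while OAS1 and IFI35 lie higher in every sh-JMJD1C library than in any control library.

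Over all genes, few passed in the deposited unit and more passed on recovered reads. With limma on log2(scaled FPKM + 0.5), 34 of 18383 genes had an adjusted p below 0.05 (0.185%, with 0.0598% higher and 0.125% lower), and 0 of the 23 members in that fit did, although 14 of the 23 had an unadjusted p below 0.05, as did 3658 genes in all. SLFN5 came closest, at a log2 fold change of -2.99 and an adjusted p of 0.0507. With limma-voom on recovered reads, 656 of 11877 genes passed (5.52%). Of the 21 members in that fit, SLFN5 fell, against 1.81% of all genes, OAS1 and IFI35 rose, against 3.71% of all genes, and 18 did not pass. The median log2 fold change was 1.02 over the 21 members and -0.08 over all genes of the fit, and 14 of the 21 members had an unadjusted p below 0.05, as did 3657 of the 11877 genes. The members' median moved with the minimum level: it was 0.45 over 29 members with at least 10 reads (-0.21 over all genes). In the FPKM fit it was 0.45 over 23 members (-0.16 over all genes). With no minimum in that fit it was -0.00045 over the 36 detected members (-0.14 over all genes). All 3 sh-JMJD1C libraries lay above all 3 control libraries for 12 members and below them for 3 (SLFN5, IFIT5 and PARP14). Such separation was found for 34.5% of all genes, 17.3% higher and 17.2% lower.

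SLFN5 was the only detected Schlafen gene among the 3, and it fell about 11-fold. It had 19, 20 and 15 reads in sh-JMJD1C 1 to 3, against 99, 222 and 560 reads in control 1 to 3. The scaled levels were 10.8, 13.7 and 10.5 RPM in sh-JMJD1C and 211, 90.3 and 137 RPM in control. The 3 sh-JMJD1C libraries lay close together, and the groups were far from overlapping. The means were 11.7 ± 1.77 in sh-JMJD1C and 146 ± 61.0 scaled RPM in control (SD, n = 3 each), with a log2 fold change of -3.51 (SE 0.47, 11.4-fold lower, limma-voom adjusted p = 0.00542). SLFN5 (ENSG00000166750) lies on the plus strand of chromosome 17, from 35243036 to 35273655 (hg38). Leaving out any 1 library gave an adjusted p of 0.00387 to 0.0361 on reads and of 0.0402 to 0.239 in the FPKM fit. SLFN11, which blocks replication under DNA damage and cleaves transfer RNA, and SLFN12, the partner of PDE3A in drug-induced cell death, had 0 reads in each library. In bulk RNA, fewer cells that express a gene and less RNA per cell cannot be told apart. With transcript length taken out as described below, and both libraries numbered 1 left out, the log2 fold change of SLFN5 was -2.15 and its adjusted p 0.0699.

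Of the OAS genes OAS1 rose and OAS3 did not pass, while OASL had few reads and OAS2 none. OAS proteins make the second messenger 2′-5′ oligoadenylate, which activates RNase L. OAS1 (ENSG00000089127, chromosome 12, 112906777 to 112933222, plus strand) rose, with 69, 104 and 89 reads in sh-JMJD1C 1 to 3 and 7, 45 and 62 reads in control 1 to 3. Its scaled levels were 39.2, 71.3 and 62.5 RPM in sh-JMJD1C, against 14.9, 18.3 and 15.2 RPM in control. The control libraries varied little, and the lowest sh-JMJD1C library was above each of them. The means were 57.7 ± 16.6 in sh-JMJD1C and 16.1 ± 1.89 scaled RPM in control (SD, n = 3 each; log2 fold change 1.75, SE 0.42, limma-voom adjusted p = 0.0385). OAS3, the OAS gene with the most reads, had 322, 169 and 140 reads in sh-JMJD1C, against 32, 130 and 287 in control. Its scaled levels were 183, 116 and 98.3 RPM in sh-JMJD1C, against 68.2, 52.9 and 70.1 in control. Its groups did not overlap, but the fit gave a log2 fold change of 1.02 and an adjusted p of 0.104. OASL had 0, 2 and 0 reads in sh-JMJD1C and 0, 3 and 2 in control, and OAS2 had none. OAS1 and OAS3 overlap an antisense gene with 39 reads in all, and strand use in counting is not given in the sources used here. The call of OAS1 was lost without control 1, without control 3, without sh-JMJD1C 2 and without sh-JMJD1C 3 (limma-voom adjusted p up to 0.164), and when libraries were scaled by their totals (log2 fold change 1.31, adjusted p = 0.0793).

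The IFI genes carry the name of interferon-inducible proteins but share no single function. IFI35 (ENSG00000068079, chromosome 17, 43006725 to 43014456, plus strand), a leucine zipper protein that pairs with NMI, rose. It had 114, 312 and 168 reads in sh-JMJD1C and 10, 81 and 69 in control, or 64.7, 214 and 118 scaled RPM in sh-JMJD1C against 21.3, 32.9 and 16.9 in control. The sh-JMJD1C libraries spread widely, yet each was above the highest control library. The means were 132 ± 75.6 in sh-JMJD1C and 23.7 ± 8.30 scaled RPM in control (SD, n = 3 each; log2 fold change 2.35, SE 0.51, limma-voom adjusted p = 0.0293). IFI6, a mitochondrial and endoplasmic reticulum protein that limits cell death and flavivirus replication, had 9, 45 and 25 reads in sh-JMJD1C, against 2, 10 and 5 in control (log2 fold change 2.61, SE 0.85, adjusted p = 0.0742). IFI27 had 5, 1 and 1 reads in sh-JMJD1C and 0, 4 and 2 in control. IFI44 had 1 read in sh-JMJD1C 3 alone, and IFI44L had none. The call of IFI35 was lost in the same 4 cases (limma-voom adjusted p up to 0.142).

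The contrast between SLFN5 and the OAS and IFI genes does not depend on scaling when the reads are set against each other within a library. Of the reads on SLFN5 and the 4 OAS genes together, SLFN5 held 4.63%, 6.78% and 6.15% in sh-JMJD1C 1 to 3, against 71.7%, 55.5% and 61.5% in control 1 to 3. The widest exact 95% intervals were 3.48% to 9.94% in sh-JMJD1C 3 and 63.5% to 79.1% in control 1, so counting error left the groups apart. Set against the 5 IFI genes, SLFN5 held 12.9%, 5.29% and 7.14% of the reads in sh-JMJD1C, against 89.2%, 70.0% and 88.1% in control. The sums behind these shares were 391, 275 and 229 OAS reads and 128, 358 and 195 IFI reads in sh-JMJD1C, against 39, 178 and 351 OAS reads and 12, 95 and 76 IFI reads in control. In every library most of the OAS reads were on OAS3, and most of the IFI reads were on IFI35. OAS3 had 631 reads in sh-JMJD1C and 449 in control, and IFI35 had 594 and 160. The shares thus set SLFN5 mainly against OAS3 and IFI35 and not against whole families. These shares were computed with the separate changes known and are given as a description. They cancel scaling between libraries but not the trend over transcript length described below. The longest transcript of SLFN5 has 10591 nucleotides, against 1241 for IFI35 and 841 for IFI6.

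**Figure D2:**
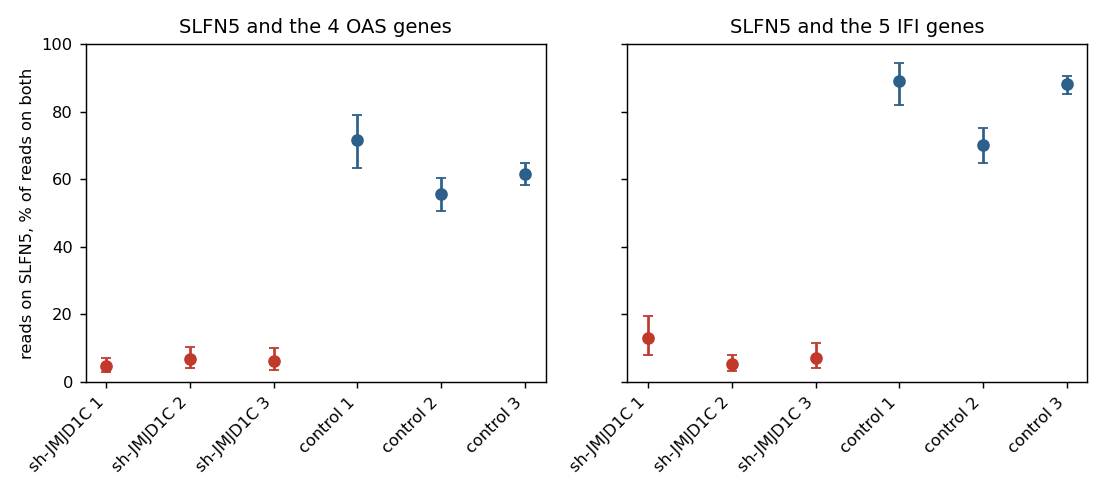
Reads on SLFN5 as a percentage of the reads on SLFN5 and the 4 OAS genes (left panel) or SLFN5 and the 5 IFI genes (right panel) in each library, with sh-JMJD1C in red, control in blue and bars for exact 95% binomial intervals, which cover counting error only. Each sh-JMJD1C library is at 12.9% or below and each control library at 55.5% or above.

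Several short effector genes had higher levels in each sh-JMJD1C library than in any control library, without passing the test. ISG15, a ubiquitin-like modifier, had 15, 66 and 31 reads in sh-JMJD1C and 3, 15 and 16 in control, or 25.2 ± 18.6 in sh-JMJD1C and 5.47 ± 1.36 scaled RPM in control (log2 fold change 1.99, SE 0.68, limma-voom adjusted p = 0.0828). IFITM3, which holds endosomes against the fusion of enveloped viruses, had 447, 525 and 329 scaled RPM in sh-JMJD1C and 192, 290 and 80.2 in control (log2 fold change 1.36, SE 0.48, adjusted p = 0.0897). BST2, or tetherin, which keeps budding virions on the cell surface, had 150, 195 and 133 scaled RPM in sh-JMJD1C, against 74.6, 74.0 and 34.7 in control (log2 fold change 1.5, SE 0.41, adjusted p = 0.0535). The groups of all 3 were apart, by a narrow margin in ISG15 and IFITM3. IFITM2, a near-identical paralog of IFITM3 with which reads may be shared, had 266, 236 and 157 reads in sh-JMJD1C and 23, 196 and 83 in control (log2 fold change 1.74, adjusted p = 0.0571). IFITM1, which overlaps IFITM2 on the same strand so that its count may be affected, had 9 reads in sh-JMJD1C and 10 in control. The exonuclease gene ISG20 had 12, 9 and 1 reads in sh-JMJD1C and 6, 16 and 15 in control. MX1, a dynamin-like GTPase and one of the usual readouts of an interferon response, had 0, 1 and 1 reads in sh-JMJD1C and 0, 1 and 4 in control, and MX2 had 2 reads in control 2 alone. Among the remaining effectors TRIM22 had 1 read in control 3, SAMD9 had 8, 4 and 26 reads in sh-JMJD1C and 8, 4 and 78 in control, and SAMD9L had 6, 6 and 5 reads in sh-JMJD1C and 4, 6 and 22 in control.

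Of the 4 members in the antigen presentation group, PSMB8, PSMB9 and TAP1 had higher levels in each sh-JMJD1C library than in any control library. None of the 4 passed in the fit reported, and the groups of B2M overlapped. PSMB8, an immunoproteasome subunit, had 42, 162 and 175 reads in sh-JMJD1C and 3, 47 and 59 in control (85.9 ± 54.1 in sh-JMJD1C and 13.3 ± 6.43 scaled RPM in control; log2 fold change 2.19, SE 0.66, limma-voom adjusted p = 0.0633). PSMB9, another such subunit, had 7, 56 and 43 reads in sh-JMJD1C and 0, 6 and 4 in control (24.2 ± 18.0 in sh-JMJD1C and 1.14 ± 1.23 scaled RPM in control; log2 fold change 3.50, SE 1.21, adjusted p = 0.0880). TAP1, a subunit of the peptide transporter, had 81, 113 and 56 reads in sh-JMJD1C and 8, 62 and 101 in control (54.3 ± 20.4 in sh-JMJD1C and 22.3 ± 4.56 scaled RPM in control; log2 fold change 1.14, adjusted p = 0.0995). B2M, the light chain of MHC class I, had 208, 423 and 842 reads in sh-JMJD1C and 91, 246 and 1654 in control. Its levels of 333 ± 240 in sh-JMJD1C and 233 ± 156 scaled RPM in control overlapped (log2 fold change 0.47, SE 0.61, adjusted p = 0.616), and the sign turned to -0.073 without sh-JMJD1C 3 and to -0.079 after quantile scaling. PSMB8, PSMB9 and TAP1 overlap one another or a PSMB8 antisense gene on chromosome 6, so that reads at their ends may be shared.

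None of the IFIT genes, whose proteins bind viral RNA, passed. IFIT5 had 21, 11 and 19 reads in sh-JMJD1C and 10, 50 and 128 in control, or 11.9, 7.54 and 13.3 scaled RPM in sh-JMJD1C against 21.3, 20.3 and 31.3 in control. Its groups did not overlap (log2 fold change -1.19, SE 0.46, limma-voom adjusted p = 0.115, and -0.36 with trends over length and GC content removed). IFIT3 had 6, 0 and 2 reads in sh-JMJD1C and 3, 8 and 40 in control, IFIT2 had 6, 0 and 2 in sh-JMJD1C and 2, 6 and 16 in control, and IFIT1 had 2, 2 and 5 in sh-JMJD1C and 3, 11 and 8 in control. At these counts no direction was read from single libraries, and IFIT1, IFIT2 and IFIT3 overlap LIPA on the other strand. Of the RNA helicases, IFIH1, the cytoplasmic sensor MDA5, had 0 reads in each sh-JMJD1C library and 1, 3 and 10 in control. Allowing 3 reads over the sh-JMJD1C group, it was at least 3.09-fold lower there, a bound that covers counting error only. DDX60 had 0 reads in each sh-JMJD1C library and 0, 2 and 7 in control. Most reads of both genes lay in control 3, and no fold is given for DDX60, which had 0 reads in control 1 as well.

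None of the transcription factors passed. STAT2, a subunit of ISGF3, had 59, 62 and 38 reads in sh-JMJD1C and 32, 120 and 173 in control (34.2 ± 7.93 in sh-JMJD1C and 53.1 ± 13.5 scaled RPM in control; log2 fold change -0.56, SE 0.39, limma-voom adjusted p = 0.335). IRF1, induced by interferon gamma, had 42, 41 and 28 reads in sh-JMJD1C and 6, 43 and 75 in control (log2 fold change 0.46, adjusted p = 0.456), and it overlaps an antisense gene with 104 reads in all. IRF7, which amplifies type I interferon production, had 45, 75 and 31 reads in sh-JMJD1C and 8, 70 and 55 in control (log2 fold change 0.69, adjusted p = 0.343). IRF9, the DNA-binding subunit of ISGF3, had 0, 3 and 2 reads in sh-JMJD1C and 0, 0 and 1 in control. IRF9 overlaps a protein-coding gene on the same strand with 6 reads in all, and how shared reads were counted is not given. The mono-ADP-ribosyl transferase PARP14 had 55, 31 and 47 reads in sh-JMJD1C and 34, 108 and 258 in control, with no overlap on the scaled levels (28.5 ± 6.34 in sh-JMJD1C and 59.8 ± 14.6 RPM in control; log2 fold change -1.01, SE 0.40, adjusted p = 0.118). The ubiquitin ligase gene DTX3L had 125, 40 and 58 reads in sh-JMJD1C and 31, 137 and 285 in control (46.4 ± 22.3 in sh-JMJD1C and 63.8 ± 7.24 scaled RPM in control; log2 fold change -0.54, adjusted p = 0.390). PARP9, which encodes the partner protein of DTX3L and overlaps it on the opposite strand, had a log2 fold change of 0.16 (adjusted p = 0.806). The signs of PARP14 and DTX3L turned to 0.13 and 0.23 when trends over length and GC content were both removed.

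**Figure D3:**
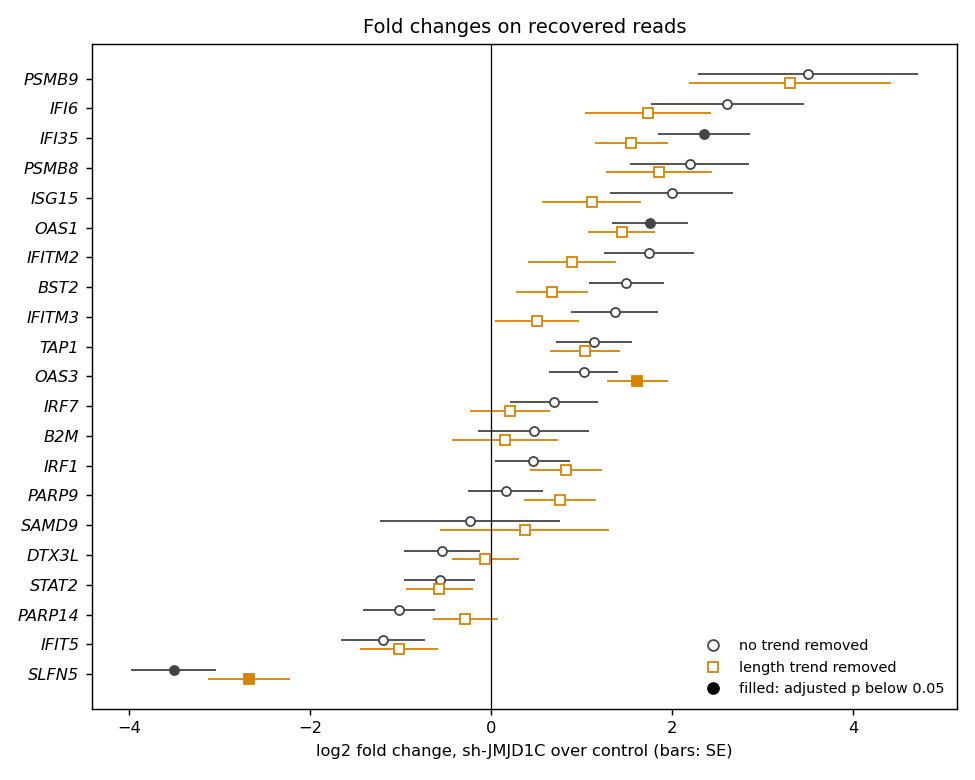
Log2 fold change of sh-JMJD1C over control on recovered reads for the 21 genes, with bars for 1 SE, circles for the fit as described, squares for the fit with the length trend removed and filled symbols for an adjusted p below 0.05. SLFN5 is filled in both (-3.51 and -2.68), OAS1 and IFI35 in the first and OAS3 in the second.

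Transcript length ran with the fold change over the whole transcriptome and over these genes. Across the 21 genes Spearman's rho between the log2 fold change and the length of the longest transcript was -0.75, and across 10211 protein-coding genes it was -0.48. With GC content it was 0.63 and 0.58. These are correlations across genes of the same libraries and are given as a description. The 6 members under 2000 nucleotides (IFI6, IFI35, ISG15, IFITM2, IFITM3 and BST2) had a median log2 fold change of 1.87 with all 6 above 0, and the 15 longer members had a median of 0.46 with 9 above 0. For all protein-coding genes the medians were 0.93 under 2000 nucleotides (1520 genes, 79.5% above 0) and -0.25 at or above (8691 genes, 40.7% above 0). When each library's trend over length was removed, 3.42% of all genes passed (2.34% higher and 1.08% lower) and 2 of the 21 members did. SLFN5 passed at -2.68 (SE 0.45, limma-voom adjusted p = 0.0165), and OAS3 passed at 1.62 (SE 0.34, adjusted p = 0.0337). OAS1 stood at 1.44 (adjusted p = 0.0529) and IFI35 at 1.55 (adjusted p = 0.0543). The short effectors came down, ISG15 to 1.11, IFITM2 to 0.89, BST2 to 0.67 and IFITM3 to 0.51, each with an adjusted p above 0.2. PSMB8 and PSMB9, of middling length, stayed at 1.86 and 3.30 (adjusted p = 0.0851 and 0.0992). With GC content removed as well, SLFN5 (-2.09, adjusted p = 0.0319), OAS1 (1.44, adjusted p = 0.0292) and OAS3 (1.24, adjusted p = 0.0379) passed. IFI35 then stood at 1.04 (adjusted p = 0.0621), ISG15 at 0.57, IFITM2 at 0.47, BST2 at 0.19 and IFITM3 at 0.032, none of which passed.

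**Figure D4:**
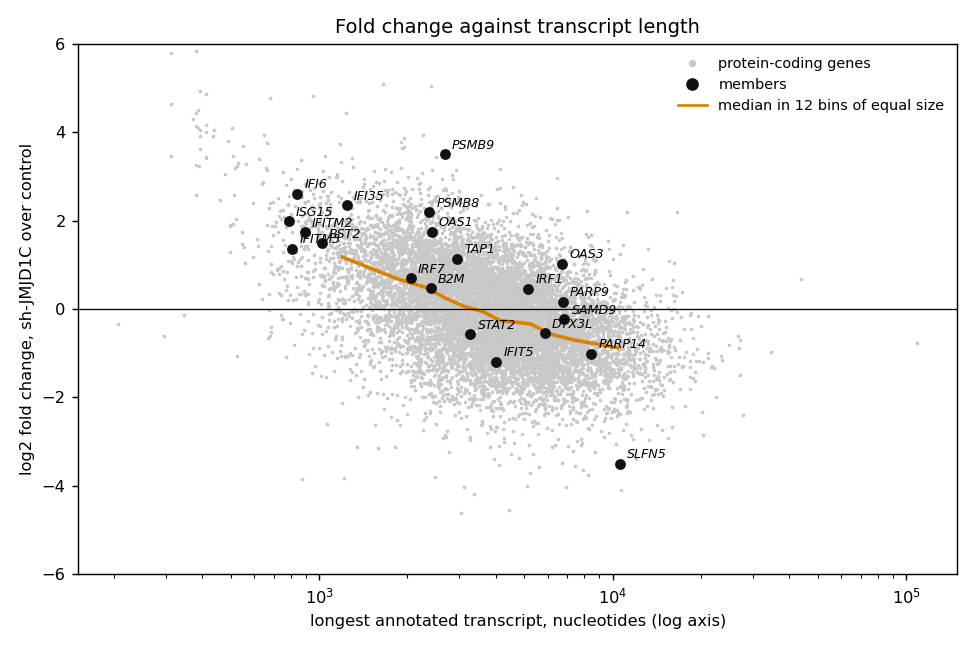
Log2 fold change of sh-JMJD1C over control on recovered reads against the longest annotated transcript in nucleotides (log axis), with grey dots for protein-coding genes, black dots for the members and a line for the median in 12 bins of equal size. The short members lie above 0 with most short genes, and SLFN5 lies far below the line at its length of 10591 nucleotides.

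Both motifs were present in genes on either side of 0. Among tested genes with a promoter window, the paired GAAA was in 9 of 13 with a log2 fold change above 0 and in 4 of 5 below 0. Among genes with a window that were below the minimum of 60 reads and so not tested, it was in 12 of 17. TTCNNNGAA was in 6 of 13, 1 of 5 and 6 of 17. IFIT5 and PARP14, below 0, hold the same core as ISG15 and OAS3, above 0, in the stretches printed above.

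Other genes of the interferon pathway were counted by list on recovered reads with limma-voom. Of all 11877 genes in that fit, 3.71% passed as higher and 1.81% as lower, and 3657 genes had an unadjusted p below 0.05. Of 22 interferon genes, 19 had 0 reads in every library, and IFNA1, IFNE and IFNK had 2, 1 and 5 reads in all. Of 15 receptor and JAK-STAT genes, 12 reached 60 reads and none passed (1 with an unadjusted p below 0.05, median -0.12). Of 20 nucleic acid sensing genes, 12 reached 60 reads, 1 fell and 11 did not pass. In this list 4 genes had an unadjusted p below 0.05, and log2 fold changes ran from -1.49 to 1.63 (median -0.34). The one that fell was EIF2AK2, the kinase PKR that stops translation on double-stranded RNA, with 94, 46 and 60 reads in sh-JMJD1C and 54, 219 and 641 in control (log2 fold change -1.49, SE 0.39, adjusted p = 0.0494, and -0.67 with an adjusted p of 0.222 once the length trend was removed). RIGI, the sensor RIG-I, was below the minimum of 60 reads, with 0, 2 and 0 in sh-JMJD1C and 4, 5 and 42 in control.

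Of 32 other interferon-stimulated genes, 16 reached 60 reads, 2 rose and 14 did not pass. Of the 16 genes, 7 had an unadjusted p below 0.05, and log2 fold changes ran from -1.50 to 2.84 (median 0.33). LY6E, a membrane-anchored protein that impairs coronavirus fusion, had 235, 417 and 157 reads in sh-JMJD1C and 16, 74 and 59 in control (log2 fold change 2.84, SE 0.49, limma-voom adjusted p = 0.0162). TRIM21, the cytosolic antibody receptor, had 41, 86 and 65 reads in sh-JMJD1C and 3, 16 and 34 in control (log2 fold change 2.39, SE 0.52, adjusted p = 0.0294). Of 12 further antigen presentation genes, 10 reached 60 reads, 1 rose and 9 did not pass. Of the 10 genes, 6 had an unadjusted p below 0.05, and log2 fold changes ran from -1.62 to 2.59 (median 1.11). The lowest was ERAP1, at 46.0, 17.8 and 17.6 scaled RPM in sh-JMJD1C against 89.6, 75.2 and 70.4 in control. Its groups did not overlap (limma-voom adjusted p = 0.0537). The one that rose was PSME2, a subunit of the proteasome activator PA28, with 92, 340 and 283 reads in sh-JMJD1C and 6, 66 and 91 in control (log2 fold change 2.59, SE 0.58, adjusted p = 0.0330). With the length trend removed, LY6E, TRIM21 and PSME2 passed (adjusted p = 0.0351, 0.0459 and 0.0376). In the fit on FPKM none of the 49 pathway genes tested passed, and 12 had an unadjusted p below 0.05. Among the other Schlafen genes SLFN12L, SLFN13 and SLFN14 had 0 reads in every library. SLFNL1 had 16, 9 and 7 reads in sh-JMJD1C and 5, 47 and 71 in control, with scaled levels of 9.08, 6.17 and 4.92 RPM in sh-JMJD1C against 10.7, 19.1 and 17.4 in control (log2 fold change -1.30, SE 0.52, adjusted p = 0.12). Its groups did not overlap. With the length trend removed SLFNL1 stood at -1.07 (limma-voom adjusted p = 0.189), and with GC content removed as well it passed at -1.58 (adjusted p = 0.0465).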

How the data were processed

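Nuclear-enriched RNA of LN-229 cells, with ribosomal RNA removed, was sequenced in 3 sh-JMJD1C and 3 control libraries. TRIzol was used for extraction and a VAHTS Universal V6 kit for the libraries, per the labels' protocols. The authors deposited FPKM per gene, computed on rising shares of each library's reads per the file headers, and the column for the full library was used. The submitters' processing notes name Bowtie 0.12.2 and hg38 without saying what each was used for. The counting tool, annotation and strand setting were not given in the sources used here.

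Whole reads were recovered from the FPKM, the gene's length and a total per library at which low values come out whole. For 27483 of 29280 genes above 0 (93.9%) that length equals the summed lengths of all GENCODE transcripts, and otherwise the smallest length that gave whole reads in all columns was taken. Of recovered values under 1000 reads, 100% were whole within 0.05, in part by that choice. Names and hg38 coordinates, counted from 1, come from GENCODE and a gene name table, by gene ID.

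FPKM were divided by median-ratio factors, and log2(FPKM + 0.5) was fitted with limma 3.58.1 in R 4.3.3 for 18383 genes with a mean of at least 0.5, on the group alone. Fold changes of that fit understate low genes. Recovered reads of 11877 genes with at least 60 reads were fitted with limma-voom. Tests were two-sided with Benjamini-Hochberg adjustment over all genes at 0.05. The length version removed a lowess trend (span 0.3) over the longest transcript. Scripts were tested on simulated data. Depth was 544442 to 2960454 reads, and exact intervals (Clopper-Pearson) and floors (3 reads) cover counting error only.

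Genes described in every library were the 3 Schlafen genes, every member past the threshold and the member of each role group with the most reads. IFI6, IFITM2, PARP14, PSMB8, PSMB9 and TAP1, and the values of other members with few reads, were added after seeing values. Pathway genes were named if they passed, and RIGI, ERAP1 and SLFNL1 were added after seeing values. The members and lists were chosen with earlier results of these data known, and 2 further pathway genes are not reported here. Alternatives covered pseudocounts, filters, scalings, weights, a replicate block, trends over length and GC content, and libraries left out.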

Additional observations from a re-analysis of the deposited data

How the results depend on the processing

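The FPKM fit called 34 genes and 0 members. The gene count was 84 with a pseudocount of 0.1, 0 with a pseudocount of 1, 0 with no filter, 79 on FPKM as deposited, 2 after quantile scaling, 914 over protein-coding genes alone, 118 with array weights and 0 without both libraries numbered 1, and leaving out 1 library gave 0 to 692. The member count was 1 with a pseudocount of 0.1, a mean FPKM minimum of 1, FPKM as deposited or array weights, 5 over protein-coding genes alone, 3 with limma-voom on reads, and 0 to 5 with 1 library left out. JMJD1C gave -1.83 over protein-coding genes alone (adjusted p = 0.0214), -2.49 with limma-voom (adjusted p = 0.0253) and -2.05 to -1.53 with 1 library left out. The fit on reads called 656 genes and 3 members. The gene count was 1195 with library totals (311 higher and 884 lower), 922 with TMM (714 higher and 208 lower), 1020 after quantile scaling, 406 with the length trend removed, 2543 with sample weights, 312 with the length trend and both libraries numbered 1 removed (chosen after seeing the data), and 31 to 2305 with 1 library left out. The median of all genes was -0.52 with library totals and -0.08 in the fit reported. The member count was 5 with TMM or quantile scaling, 12 with sample weights, 7 without both libraries numbered 1, and 1 to 8 with 1 library left out, being SLFN5 alone without control 1, control 3, sh-JMJD1C 2 or sh-JMJD1C 3. With the length trend and both libraries numbered 1 removed it was 2, PSMB8 and PSMB9, both higher. On reads PSMB8 and PSMB9 each passed in 6 of the alternatives and did not pass in 10. Signs turned for B2M (FPKM -0.20 after quantile scaling, -0.12 to 0.98 with 1 library left out, below 0 without sh-JMJD1C 3 and, at -0.09, without control 2; on reads -0.079 after quantile scaling and -0.073 to 1.06 with 1 library left out, below 0 without sh-JMJD1C 3) and, with length and GC trends removed, for DTX3L (0.23) and PARP14 (0.13). Whether the replicate numbers pair the libraries cannot be settled with 3 libraries per group. Deviations of same-numbered libraries from their group means correlated at 0.023, 0.375 and 0.480. By these deviations sh-JMJD1C 2 and sh-JMJD1C 3 correlated best with the control of the same number, and sh-JMJD1C 1 with control 2 (0.181). With the replicate block the FPKM fit called 0 genes and 0 members, and the fit on reads 4260 genes and 14 members. The cause of these differences was not tested. The minimum of 60 reads left out 15 of the 36 detected members. With a minimum of 10 reads, 29 members and 17862 genes were tested, and 3 members (IFI35, OAS1 and SLFN5) and 711 genes passed.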
